A study of Apis mellifera with 6 samples.

Results

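Among 10041 genes measured by RNA-seq in the honey bee midgut, 50 genes had few reads in control bees and more reads in every bee fed halofuginone. They were picked by a rule with 3 limits on the normalised read count, which is the number of reads on a gene divided by a size factor for its library. The mean of the 3 control libraries was under 200, the lowest halofuginone library was at least 1.5 times the highest control library, and the mean of the 3 halofuginone libraries was at least 50. Genes whose symbols start like those of heat shock, ribosomal, troponin, cytochrome P450, transfer RNA, microRNA, immune and antioxidant genes were left out, together with 3 single gene IDs. This removed 1 gene, Mir9888, that met the numeric limits. The rule read the difference between halofuginone and control directly, so that difference is given below as a description of these 50 genes, with no test.

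The libraries came from adult Apis mellifera, a mix of subspecies, and each library held the midgut of 1 bee. The source colonies were outbred, and the paper states that the bees of each experiment shared a colony. In that case the spread between libraries holds no differences between colonies. Control 1, Control 2 and Control 3 were bees fed sucrose with 0.5% DMSO, the vehicle, for 24 h. Halofuginone 2, Halofuginone 3 and Halofuginone 4 were bees fed sucrose with 200 µM halofuginone in the same 0.5% DMSO for 24 h. No source used here states the age of the bees. Bees of an outbred colony differ in genotype, so the spread between libraries includes differences between individuals.

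Halofuginone blocks prolyl-tRNA synthetase, the enzyme that loads proline onto its transfer RNA. In animal cells the uncharged transfer RNA activates the kinase GCN2, which phosphorylates the initiation factor eIF2alpha. Most translation then falls while a set of stress messages, led by that of the transcription factor ATF4, is translated better, and this programme is called the integrated stress response. The midgut is the digestive and absorptive part of the bee gut, where a compound taken with food meets the tissue. In such a tissue, genes with few reads in the resting state can belong to rare cells, to tightly regulated programmes or to non-coding transcripts. In a bulk sample, more cells of a type and more RNA per cell cannot be told apart.

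All 50 genes had reads in every control library, so "low" fits them and "silent" does not. The lowest control value was 2.96 normalised counts, from 3 reads on LOC552773 in Control 2. Only 1 gene had a control mean under 5, while 3 were under 10, 7 under 20, 23 under 50 and 28 under 100. In the whole set of 10041 genes, 0 were at 0 in all control libraries, and the lowest total over the 6 libraries was 61 reads. The control means of the 50 genes ran from 4.46 to 199 with a median of 56.7, against a median of 402 over all genes. After halofuginone their means ran from 53.1 to 3405 with a median of 255.

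The ratio of the halofuginone mean to the control mean ran from 1.82 to 42.2 with a median of 3.68. On the scale of log2(value + 1), which understates the change of genes with few reads, the differences ran from 0.85 to 4.97 with a median of 1.83, against -0.01 over all genes. In 47 genes the ratio of means was at least 2, in 31 at least 3, in 16 at least 5 and in 6 at least 10. Together the 50 genes took 0.0149% to 0.0184% of all normalised counts in the control libraries. They took 0.0523% in Halofuginone 2, 0.0694% in Halofuginone 4 and 0.135% in Halofuginone 3, so they remained a very small share of the transcriptome throughout.

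The background rates put these counts in proportion. Over all 10041 genes, every halofuginone library was above every control library in 15.9%, and the gap of at least 1.5 times that the rule asked for was met by 2.34%. After the same exclusion by symbol, 1862 genes met both the ceiling on the control mean and the floor on the halofuginone mean, and 2.69% of these also met the gap. A limma fit across all genes called 2.37% of them at a Benjamini-Hochberg adjusted p under 0.05 and an absolute log2 difference above 1, with 1.67% higher and 0.697% lower after halofuginone. It called 40 of the 50 genes higher (2.2% of the 1862 genes that met the ceiling and floor were), from which nothing is read because the rule used the same values. With 1 library left out it called 3 (without Control 2 or Control 3) to 25 (without Control 1) of them. Of the 10 not called, 7 missed the limit on the adjusted p and 3 (LOC552839, LOC726810 and LOC107965225) missed only the limit on the difference.

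**Figure D1:**
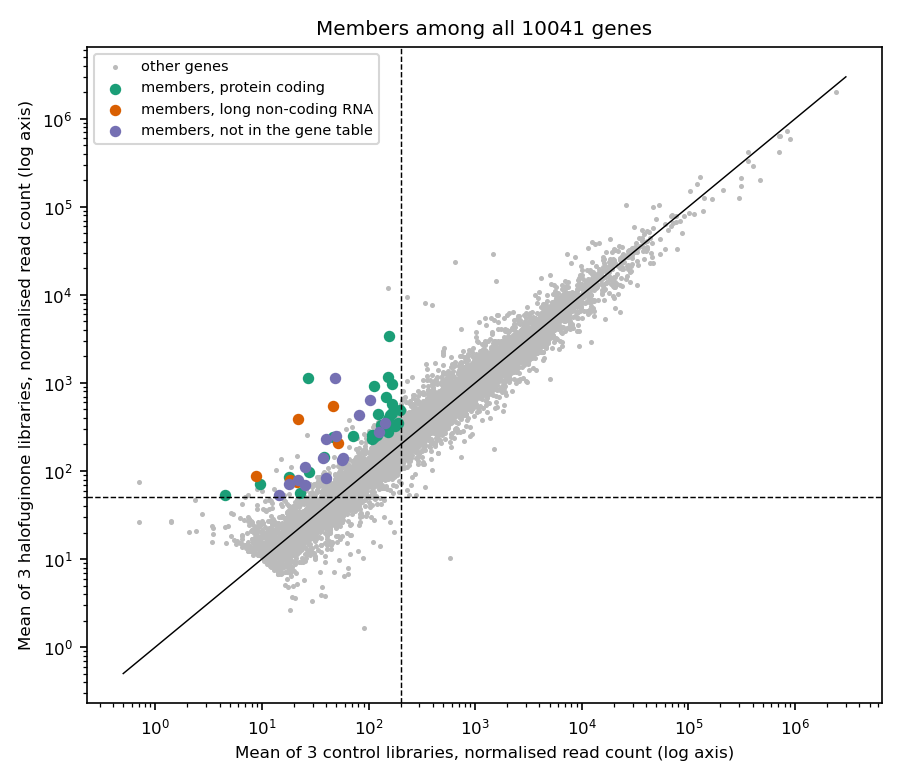
Mean normalised read count of the 3 halofuginone libraries against that of the 3 control libraries for all 10041 genes, both axes on a log scale. Coloured points are the 50 selected genes by gene class, dashed lines mark the ceiling of 200 and the floor of 50, and the solid line marks equal means; grey points in the same corner are genes that met the ceiling and floor but not the gap between libraries.

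The limits cut through a continuous range of values. On the gap, LOC102656472, LOC409512 and LOC107964170 lay just inside at 1.51, 1.52 and 1.52, while LOC102654893 and LOC102655072 missed the limit by less than 0.01 and LOC552096 lay at 1.47. On the control mean, LOC412769 was just inside at 199 and LOC100577136 just outside at 223. On the halofuginone mean, LOC552773 was just inside at 53.1 and LOC552238 just outside at 47.8. The genes on either side of a limit were close in the limited quantity only, and differed in others: LOC102656472 and LOC102654893 had halofuginone means of 392 and 70.2.

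By gene class, 28 of the 50 were protein-coding, 6 were long non-coding RNAs (lncRNAs, transcripts without a long reading frame) and 16 had no entry in the RefSeq gene table of the Amel_HAv3.1 assembly used here for names. The unlisted IDs made up 32% of the group, against 11.8% of the 1862 genes that met the ceiling and floor and 8.13% of all genes. Protein-coding genes made up 56%, against 76.4% and 83.9%, and lncRNAs 12%, against 11.7% and 7.45%. All but 1 of the genes carry only a LOC number, and the exception is CPF1, a cuticular protein gene of the CPF family. The tables give no function for the LOC genes, and none is assigned to them here.

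**Figure D2:**
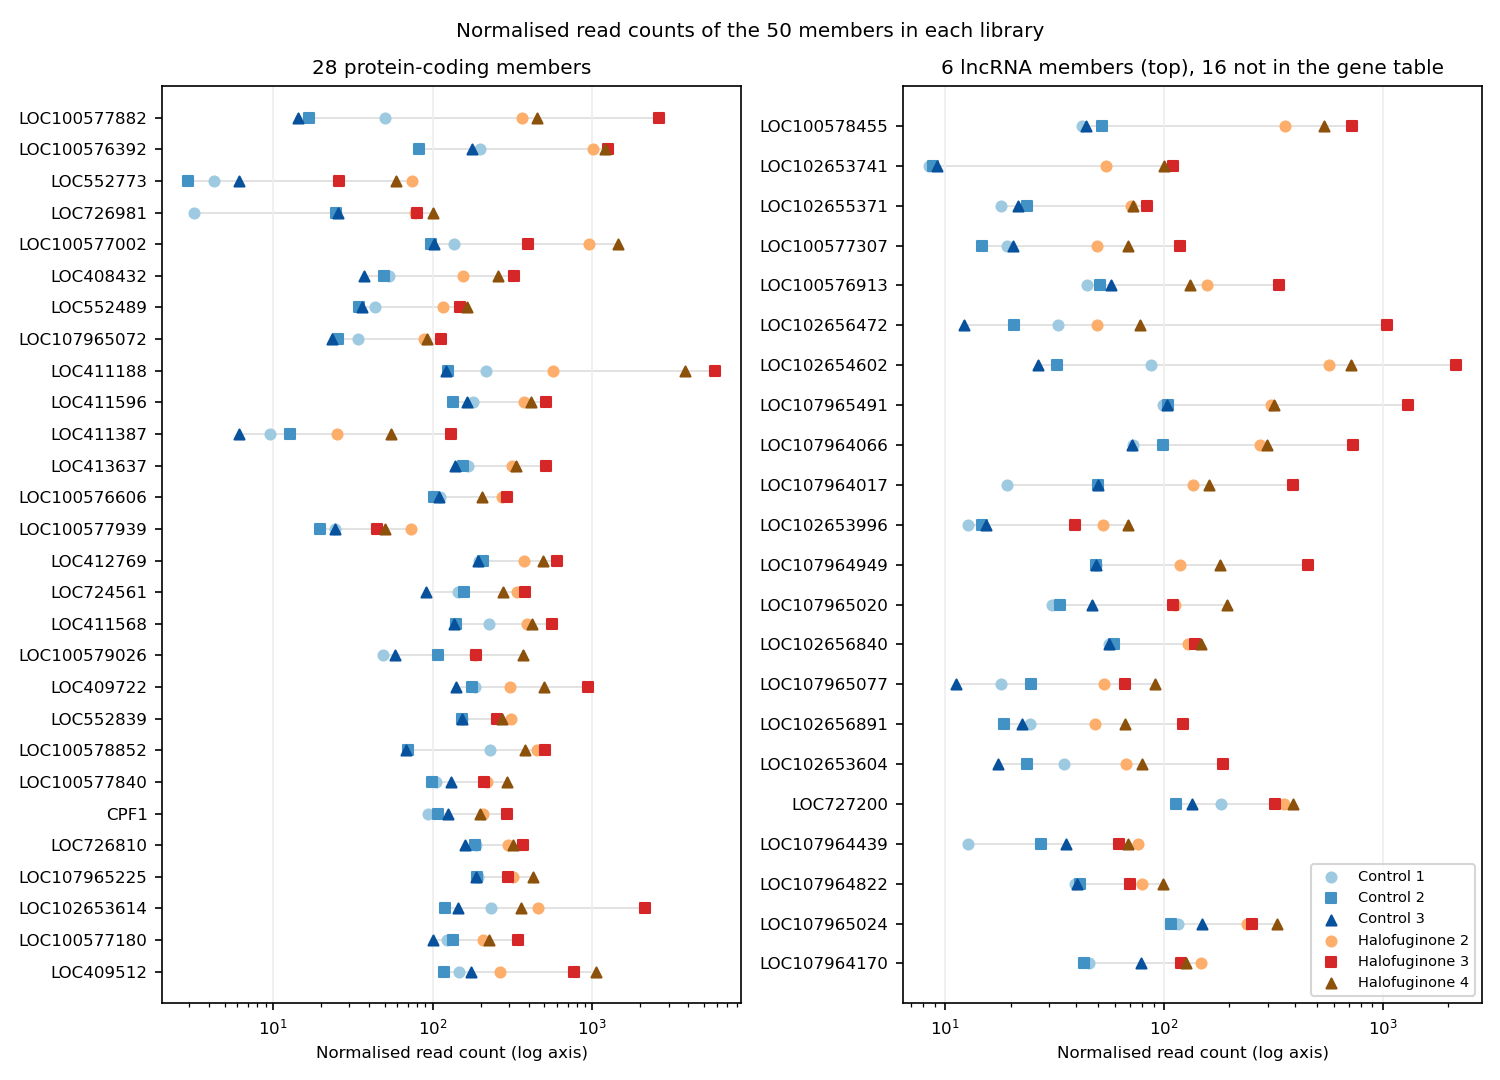
Normalised read count (log axis) of each of the 50 genes in each library, with protein-coding genes in the left panel and lncRNAs and unlisted genes in the right. Blue symbols are the 3 control libraries and orange, red and brown symbols the 3 halofuginone libraries; the grey line spans all 6 values, and the lowest halofuginone value lies right of the highest control value in each gene, as the rule requires.

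The protein-coding genes had a median ratio of means of 3.46, with a range of 1.82 to 42.2. LOC100577882 had the widest gap between groups of all 50, its lowest halofuginone library being 7.25 times its highest control library. Its normalised counts were 50.1, 16.8 and 14.4 in Control 1 to 3 and 363, 2609 and 452 in Halofuginone 2 to 4. The means were 27.1 ± 19.9 and 1141 ± 1272 (SD, n = 3 each), a ratio of 42.2 and a log2 difference of 4.97. The spread was large in both groups, Control 1 standing above the other controls and Halofuginone 3 above the other treated bees, yet the groups stayed far apart.

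LOC411188 reached the highest normalised count after halofuginone of any of the 50. It had 217, 125 and 121 normalised counts in the controls and 564, 5838 and 3814 after halofuginone, with means of 155 ± 54.4 and 3405 ± 2660. The ratio of means was 22.0, while the lowest halofuginone library exceeded the highest control by only 2.60 times. Halofuginone 2 thus stood far below the other treated bees for this gene, and the highest treated library was 10.4 times the lowest.

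LOC100576392 showed the opposite kind of profile, with a high and even level in the treated bees. Its values were 198, 81.9 and 175 in the controls and 1015, 1252 and 1193 after halofuginone, giving means of 152 ± 61.6 and 1153 ± 123. The ratio of means was 7.60 and the log2 difference 3.01. Here the treated libraries differed by 1.23 times and the controls by 2.42 times, so the spread lay mostly among the untreated bees.

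LOC552773 was the gene with the fewest control reads. It had 4.26, 2.96 and 6.16 normalised counts in the controls and 74.2, 25.8 and 59.3 after halofuginone, with means of 4.46 ± 1.61 and 53.1 ± 24.8. The sums were 13 reads in the controls and 161 after halofuginone, a ratio of 11.6 with an exact 95% interval of 6.61 to 22.3 that covers counting error only. LOC726981, which lies 1 gene away from it in the gene order, had 3.20, 24.7 and 25.7 in the controls and 77.1, 79.8 and 100.3 after halofuginone. Its 53 and 265 summed reads gave a ratio of 4.70 with an interval of 3.49 to 6.43. The rule chose both genes for a high ratio, so the intervals are no test of a difference. For LOC726981, Control 1 held only 3 reads against 25 in each other control, so its controls were uneven while its treated libraries were close together.

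LOC100577002 differed from most of the group in which treated bee was lowest. It had 135, 97.7 and 102 normalised counts in the controls and 951, 394 and 1454 in Halofuginone 2, 3 and 4, a ratio of means of 8.37. Halofuginone 3 had the lowest value of the treated libraries in 12 of the 50 genes, and in 3658 of all 10041. In LOC100577002 and LOC552773 it was 0.328 and 0.386 times the mean of the other treated bees. LOC408432 had 53.3, 49.3 and 36.9 in the controls and 154, 325 and 256 after halofuginone, a ratio of 5.26. LOC552489 had 43.7, 34.5 and 35.9 against 116, 149 and 164, and LOC107965072 had 34.1, 25.7 and 23.6 against 88.8, 113 and 91.7, with ratios of 3.76 and 3.53. LOC552489 and LOC107965072 had compact groups, each spanning less than 1.5 times from its lowest to its highest library.

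At the other end stood protein-coding genes with small differences. LOC552839 had 152, 152 and 153 normalised counts in the controls and 309, 252 and 273 after halofuginone, a ratio of 1.82, the lowest of the 50. LOC107965225 had 192, 190 and 186 against 317, 297 and 428, a ratio of 1.84, and LOC726810 had 187, 183 and 160 against 297, 367 and 317, a ratio of 1.85. In LOC552839 and LOC107965225 the control libraries lay within 1.03 times of each other, while the treated libraries had SDs of 29.3 and 70.7. LOC412769, with the highest control mean of the group, had 196, 208 and 193 against 372, 598 and 493, a ratio of 2.45.

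CPF1 was the only gene of the 50 whose symbol is not a LOC number. CPF proteins are a small family of secreted proteins of the insect cuticle, named for a short conserved stretch they share. CPF1 had 93.7, 108 and 125 normalised counts in the controls and 208, 294 and 198 after halofuginone, with means of 109 ± 15.8 and 233 ± 52.4. The ratio was 2.14 and the log2 difference 1.08. Among the nearest measured neighbours of CPF1 is its family member CPF2. CPF2 met neither the ceiling nor the gap (its lowest treated library was 1.08 times its highest control). It had 987, 1153 and 1415 in the controls and 2243, 2563 and 1529 after halofuginone. CPF2 had a log2 difference of 0.82 ± 0.22 (SE, limma adjusted p = 0.0748), which did not pass the threshold, although all treated libraries were above all controls. Of 10 genes with symbols of cuticular proteins, a list made with results of these data known, limma called 1 higher, against 1.67% of all genes, and 0 lower, with a median log2 difference of 0.41. The one called was CPF1 itself, which the rule chose for that difference. The counts were the same with edgeR and DESeq2, and at an unadjusted p under 0.05 they were 2 and 0, against 12.9% and 10.9% of all genes.

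The 6 lncRNAs had a median control mean of 21.6 normalised counts, against 121 for the protein-coding and 44.6 for the unlisted genes, with no correction for gene length. Their median ratio of means was 7.17. LOC100578455 had 42.6, 52.3 and 44.1 normalised counts in the controls and 359, 725 and 543 after halofuginone, a ratio of 11.7 and a log2 difference of 3.47. LOC102653741 had 8.52, 8.88 and 9.24 in the controls and 54.7, 111 and 100.3 after halofuginone, a ratio of 9.98. In both, the controls were tight and the lowest treated library was 6.87 and 5.92 times the highest control, so these lncRNAs had among the clearest separations of the 50 despite few reads.

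The other lncRNAs ranged from regular to dominated by a single bee. LOC102655371 had 18.1, 23.7 and 21.5 normalised counts in the controls and 71.3, 84.1 and 72.3 after halofuginone, a ratio of 3.59 with little spread in either group. LOC100577307 had 19.2, 14.8 and 20.5 against 49.8, 118 and 69.0, a ratio of 4.35. LOC100576913 had 44.7, 51.3 and 57.5 against 158, 338 and 132, a ratio of 4.09. Among its nearest measured neighbours is E75, which encodes a nuclear receptor induced by the moulting hormone ecdysone in Drosophila. E75 itself had a log2 difference of 0.24 ± 0.21 (limma adjusted p = 0.531). LOC102656472 had 33.0, 20.7 and 12.3 in the controls and 49.8, 1048 and 77.7 after halofuginone. Its ratio of means of 17.8 rested on Halofuginone 3, and without that library the ratio was 2.89.

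The 16 unlisted genes had a median ratio of means of 3.75, with a range of 2.07 to 23.5. LOC102654602 stood out, with 87.3, 32.6 and 26.7 normalised counts in the controls and 570, 2159 and 715 after halofuginone, a ratio of 23.5 and a log2 difference of 4.46. LOC107965491 had 99.0, 105 and 104 against 310, 1313 and 320, a ratio of 6.33. LOC107964017 had 19.2, 50.3 and 50.3 against 136, 389 and 161, and LOC107964066 had 72.4, 99.6 and 71.8 against 274, 730 and 297, with ratios of 5.72 and 5.33. All of these shared the profile of LOC100577882, with Halofuginone 3 far above the other treated bees. LOC102656840 was unlike them, at 56.4, 59.2 and 56.4 in the controls and 130, 139 and 149 after halofuginone, a ratio of 2.43 with SDs of 1.59 and 9.53.

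The treated libraries spread more widely in these genes than the controls did. The highest treated library was at least 2 times the lowest in 21 of the 50 genes (42%), against 25.1% of the 1862 genes meeting the ceiling and floor and 18.2% of all genes. For the controls the same was true of 13 genes (26%), against 20.9% and 16.1%. Halofuginone 3 was the highest treated library in 31 genes (62%, against 42.2% and 38.8%). Halofuginone 4 was highest in 14 (28%, against 23.8% and 32.6%) and Halofuginone 2 in 5 (10%, against 34.0% and 28.6%). Halofuginone 2 was the lowest in 32 of the 50, against 566 of the 1862 genes and 3321 of all 10041. These are counts over genes of the same bees and carry no test. The rule limits how high a control library can lie and sets no upper limit on a treated library. It therefore shapes this contrast in spread, and can shape the counts of genes high in Halofuginone 3.

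In 14 of the 50 genes (28%), Halofuginone 3 was at least 2 times the mean of Halofuginone 2 and 4, against 8.27% of the 1862 genes and 4.71% of all genes. The factor was 16.4 in LOC102656472, 6.40 in LOC100577882, 5.23 in LOC102653614, 4.16 in LOC107965491 and 3.36 in LOC102654602. By class these 14 were 7 of the 16 unlisted genes, 5 of the 28 protein-coding genes and 2 of the 6 lncRNAs. LOC102653614 had 231, 119 and 145 normalised counts in the controls and 459, 2134 and 357 after halofuginone. LOC411387 had 9.59, 12.8 and 6.16 against 25.4, 130 and 55.0. In these 14 genes a single bee made up much of the treated mean.

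Without Halofuginone 3, the median ratio of means of these 14 genes was 3.07 in place of 5.84, with a range of 2.41 to 15.1, and that of the other 36 was 2.78 in place of 2.73. Over all 50 it was 2.97 in place of 3.68. LOC100577882, LOC411188 and LOC102654602 kept ratios of 15.1, 14.2 and 13.2. Control 1 was the highest control in 21 genes, and with no share over all genes beside it nothing is read from this count. It was at least 2 times the mean of Control 2 and 3 in 3 of the 50 genes (6%, against 3.03% of all genes). These were LOC100578852 at 3.34, LOC100577882 at 3.22 and LOC102654602 at 2.95. LOC100578852 had 230, 70.0 and 67.7 in the controls and 453, 502 and 378 after halofuginone, so its treated libraries were even and its controls were not.

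**Figure D3:**
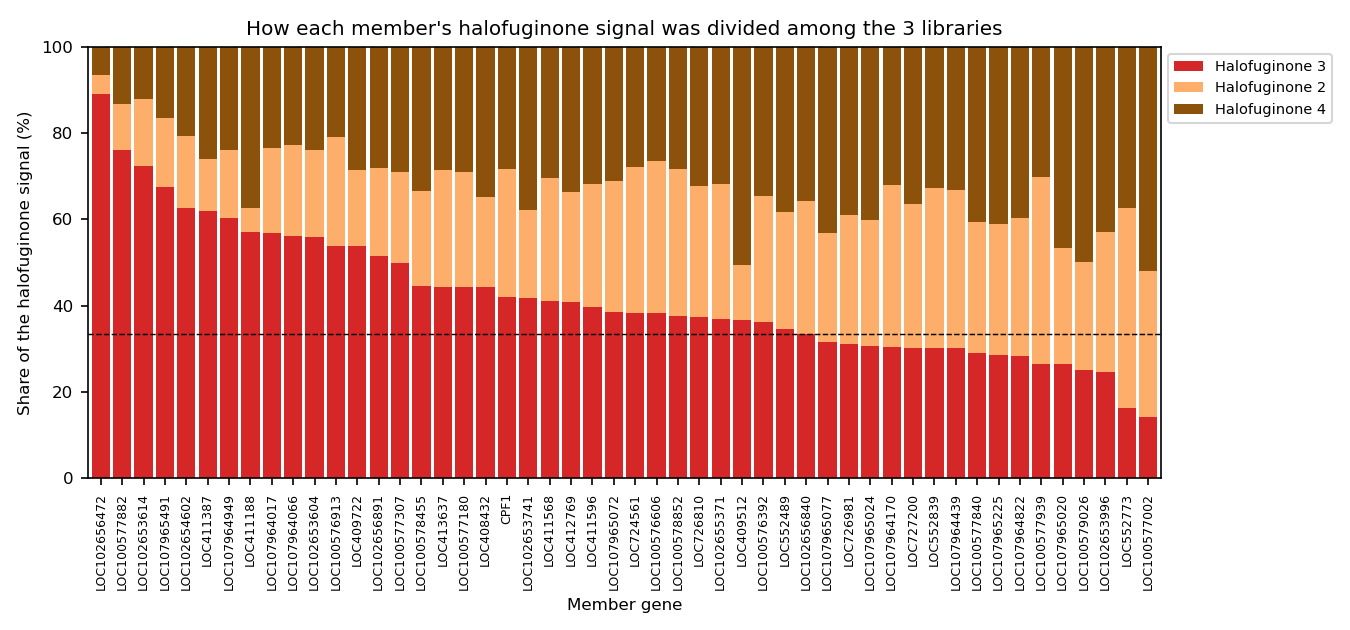
Share of the summed halofuginone signal of each of the 50 genes that came from Halofuginone 3 (red), Halofuginone 2 (orange) and Halofuginone 4 (brown), in percent, with genes ordered by the share of Halofuginone 3. The dashed line marks an equal share; LOC102656472 at the left had a Halofuginone 3 value 16.4 times the mean of the others, and LOC100577002 at the right had the lowest share.

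The rule did not read the genes beside and overlapping the group, although their values come from the same libraries. Of the 50 genes, 34 could be placed in the gene order of Amel_HAv3.1. The reads were mapped to an earlier assembly, Amel 4.5, so only the order of genes is used and no coordinates are given. For these 34 genes, 78 other measured genes either overlapped or were the nearest measured gene on a side. Genes without a value could lie between. Limma called 5 of the 78 higher after halofuginone (6.41%, against 1.67% of all genes) and 0 lower, and the median log2 difference was 0.17. At an unadjusted p under 0.05, 23 of the 78 were higher and 4 lower, against 12.9% and 10.9% of all genes. EdgeR called 5 of them higher and DESeq2 9, against 1.59% and 2.47% of all genes, and each called 0 lower. With 1 library left out, 0 (without Control 2 or Control 3) to 4 (without Control 1) of them were called higher, and 3 without Halofuginone 3. Of the 14 that overlapped a gene of the group, 2 were called higher and the median was 0.71, while of the 64 that flanked one without overlap, 3 were called higher and the median was 0.11. No source used here says whether strand was used in counting, and reads in overlapping genes may not be separable.

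The pairs with a called overlapping gene involved genes with few reads of their own. LOC102653741, an lncRNA, overlaps the protein-coding gene LOC724422, which had 377, 200 and 210 normalised counts in the controls and 536, 949 and 729 after halofuginone (log2 difference 1.51 ± 0.30, limma adjusted p = 0.0340). LOC107965072 overlaps LOC724542, which had 641, 400 and 444 against 1071, 981 and 1036 (1.08 ± 0.19, limma adjusted p = 0.0232). In each pair the partner had many times the reads of the selected gene and its treated libraries were all above its controls. The order of the treated libraries was the same in LOC102653741 and LOC724422, where Halofuginone 3 was highest and Halofuginone 2 lowest, and was not the same in LOC107965072 and LOC724542.

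Some overlapping genes that limma did not call carried the mark of Halofuginone 3. LOC413596, which overlaps the lncRNA LOC102656472, had 2229, 1932 and 1421 normalised counts in the controls and 2854, 10114 and 3439 after halofuginone (limma adjusted p = 0.132). LOC409288, which overlaps LOC102653614, had 3178, 2670 and 3235 against 4195, 10112 and 4211 (limma adjusted p = 0.162). LOC107964668, an lncRNA that overlaps LOC411387, had 1.07, 0 and 1.03 against 3.90, 66.1 and 9.71. In all 3 pairs the same treated bee was highest in both partners, but they were picked for being high in Halofuginone 3. The other overlapping pairs varied. The highest treated bee was shared by LOC411596 and LOC409122, for example. It differed between LOC102655371 and LOC410154, LOC552489 and LOC412524, and LOC413637 and LOC413065. How far shared reads account for a shared order in any pair was not tested. Of all 14 overlapping genes, 10 had a log2 difference above 0. The others were LOC100579055, which overlaps LOC411568 (-0.91), and LOC413065, which overlaps LOC413637 (-0.53). Also below 0 were LOC107964773, which overlaps LOC100576606 (-0.29), and LOC409122, which overlaps LOC411596 (-0.12).

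Among genes that flank the group without overlap, limma called LOC724336, LOC724756 and LOC100578090 higher. LOC724336, beside LOC100576392, had 2149, 1235 and 1406 normalised counts in the controls and 4552, 7147 and 5898 after halofuginone (log2 difference 1.89 ± 0.25, limma adjusted p = 0.0108). LOC724756, beside the lncRNA LOC102655371, had 4629, 4084 and 3767 against 7323, 22962 and 16676 (1.77 ± 0.39, limma adjusted p = 0.0429). LOC100578090, beside LOC408432, had 6436, 7423 and 9929 against 17093, 35050 and 16518 (1.46 ± 0.32, limma adjusted p = 0.0427). Each of these neighbours had many more reads than the selected gene beside it, and in each the treated libraries lay above all controls.

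LOC100577002 lies between LOC409751 and LOC102654160, neither of which passed the threshold. LOC409751 had 6707, 4354 and 4894 normalised counts in the controls and 14990, 3162 and 12401 in Halofuginone 2, 3 and 4, and LOC102654160 had 16.0, 41.4 and 7.18 against 296, 22.3 and 129 (limma adjusted p = 0.507 and 0.195). All 3 genes were lowest, among the treated bees, in Halofuginone 3, which was lowest in 12 of the 50 genes and highest in 31. LOC100577882 has LOC102655202 beside it, with 29.8, 2.96 and 6.16 in the controls and 4.88, 178 and 3.24 after halofuginone (limma adjusted p = 0.803). That neighbour was high in Halofuginone 3 and also the highest of the controls in Control 1, as LOC100577882 was, but its other treated libraries were at the control level.

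Some of the 50 lay close together. LOC107965225 and LOC409512 are adjacent in the gene order, and LOC551815 on the other side of LOC107965225 had a log2 difference of 0.87 ± 0.12 (limma adjusted p = 0.0137), under the limit of 1. LOC409512 had 146, 117 and 174 normalised counts in the controls and 265, 764 and 1056 after halofuginone, a ratio of 4.76, so it was far more variable among treated bees than its neighbour. LOC100576392 follows LOC409512 with 9 genes between them, so these 3 genes lie in one stretch. LOC412769, LOC726981 and LOC552773 lie within a run of 9 genes. LOC100577002 and LOC100577840 are separated by 21 genes. These distances are described only, since how often 34 genes fall this close was not tested.

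LOC724561 lies between CSP3 and CSP4, which encode chemosensory proteins, small soluble proteins that bind hydrophobic ligands. LOC724561 had 144, 158 and 91.3 normalised counts in the controls and 336, 378 and 275 after halofuginone, a ratio of 2.52. CSP3 had 36269, 33723 and 23484 against 69945, 54441 and 51903 (log2 difference 0.93 ± 0.23, limma adjusted p = 0.0594), above the controls in every treated library but outside the threshold. CSP4 had 39.4, 66.1 and 34.9 against 67.3, 53.2 and 27.0 (0.03 ± 0.42, limma adjusted p = 0.976), with overlapping groups. The pattern of LOC724561 was thus nearer that of the neighbour on one side than on the other, a description of single genes.

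**Figure D4:**
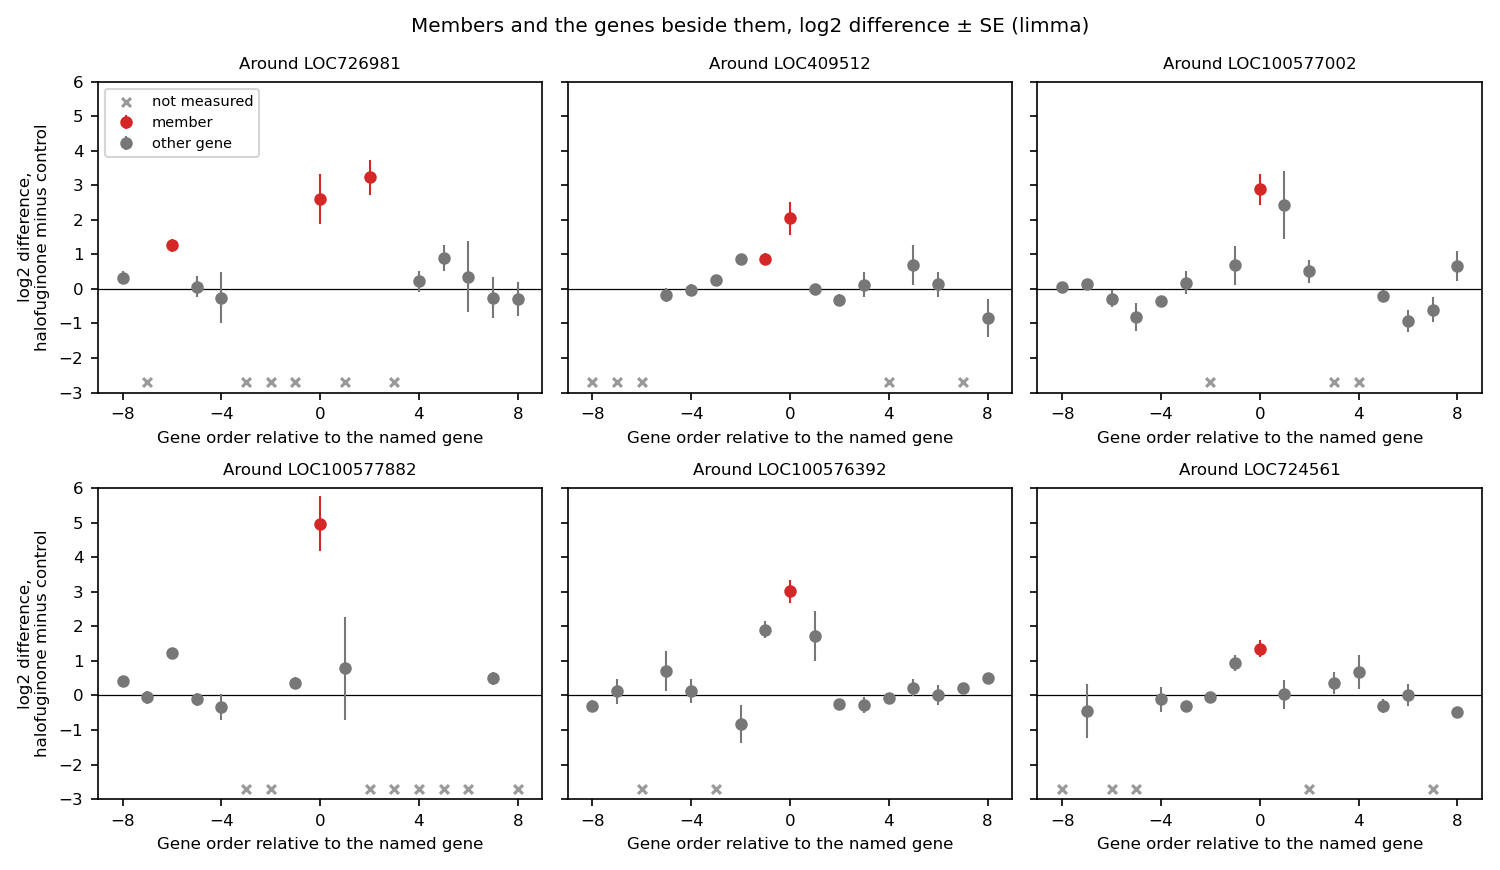
Log2 difference (halofuginone minus control, on log2(value + 1), with the limma SE) of genes around 6 selected genes, by position in the gene order from the named gene at 0. Red points are genes of the group, grey points other genes, and crosses at the bottom genes with no value used here. The neighbour of LOC100576392 at -1 is LOC724336 at 1.89. Around LOC726981 and LOC409512 most grey points lay near 0, with LOC727021 at 0.90 and LOC551815 at 0.87 among the exceptions. LOC552773 at 3.22 beside LOC726981 and LOC107965225 at 0.85 beside LOC409512 belong to the group.

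A list of 10 genes that the study names held its l(2)efl small heat shock protein genes and the regulators CncC and Keap1. It held no gene for GCN2, eIF2alpha or ATF4, so those parts of the integrated stress response were not examined. Limma called 3 of the 10 higher, against 1.67% of all genes, and 0 lower, with a median log2 difference of 0.78. At an unadjusted p under 0.05 the counts were 6 and 1, against 12.9% and 10.9% of all genes. With edgeR they were 3 and 0 and with DESeq2 4 and 0, where 1.59% and 2.47% of all genes were called higher. The study singled out some of the l(2)efl genes on these libraries, so the count is not independent evidence of a direction. CncC (LOC725081), a transcription factor of the oxidative stress response and relative of mammalian Nrf2, had 5051, 5168 and 5598 normalised counts in the controls and 7857, 8743 and 8058 after halofuginone. Its log2 difference was 0.64 ± 0.11 (limma adjusted p = 0.0232), past the limit on p and under that on size. Keap1 (LOC411679), which holds CncC-type factors in check, had 829, 938 and 912 against 589, 984 and 832 (-0.19 ± 0.19, limma adjusted p = 0.614). None of these genes met the limits of the rule.

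The libraries held 23305398 to 26278866 reads, and no pair of libraries within a group was alike enough to be 1 library deposited in duplicate (chi-square per degree of freedom 44.8 to 277). The midgut label was checked with marker genes chosen with earlier results known. Of 3 listed digestive genes 1 had a value, and of 2 listed venom gland genes 0 did. The digestive gene was Hbg2, an alpha-glucosidase that digests sucrose. Hbg2 had many reads, at 546506 to 935502 normalised counts in the controls and 598976 to 678642 after halofuginone. Limma called 0 of 6 fat body genes, whose summed counts were 821 to 1010 in the controls and 543 to 742 after halofuginone, and 0 of 5 muscle genes, at 5105 to 8440 and 4473 to 8159. It also called 0 of 1 neuronal gene with a value, of 4 listed (40.5 to 94.4 and 47.8 to 59.3). For haemocytes it called 0 of 1 gene with a value, of 2 listed (63.1 to 75.9 and 56.1 to 71.3). EdgeR and DESeq2 also called 0 of these, and 1 muscle gene was lower at an unadjusted p under 0.05. Hbg3, an alpha-glucosidase of the hypopharyngeal gland, was 1 of 6 listed genes of that gland with a value and was called lower (log2 difference -1.57 ± 0.18, limma adjusted p = 0.00856), at 1244 to 1834 in the controls and 458 to 598 after halofuginone. The part of other tissues in the values of the 50 genes was not tested.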

How the data were processed

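Poly(A) RNA from single midguts was sequenced as paired reads. According to the submitters' processing notes and the paper's methods, reads were trimmed with Trimmomatic 0.36, mapped with STAR to Amel 4.5, counted with Subread and normalised with DESeq2; versions other than that of Trimmomatic were not given in the sources used here. The 3 deposited tables hold a signal made by the authors: the read count of each gene divided by 1 size factor per library. Whole reads were recovered within 0.01 reads for 100% of values, with size factors of 0.927 to 1.16 and totals of 23305398 to 26278866 reads per library; 0 columns were left unused. With 3 libraries per group, the limma p-values set each difference against the spread between single bees. That spread was moderated by a trend over all genes. The paper states that the bees were caged and does not say how the libraries were divided among cages. Cage and treatment may therefore not be separable.

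The tables were joined by gene and the rule was applied to the deposited values. The 50 genes, the gene lists and the tests were chosen with earlier results of these data known. The fit across all 10041 genes was limma 3.58.1 with a variance trend on log2(value + 1) in R 4.3.3, with no covariate; genes were called at a Benjamini-Hochberg adjusted p under 0.05 and an absolute log2 difference above 1. The limma fit was tested on simulated data. Alternatives were pseudocounts of 0.5 and 4, a filter of 50 in 3 libraries, library-total and TMM scaling, limma without a trend, edgeR 4.0.16 and DESeq2 1.42.0 on recovered reads, replicate blocks and each library left out. On recovered reads edgeR called 237 genes and DESeq2 385, against 238 by limma.

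Genes chosen to be named were those with a symbol, the 12 with the widest gap and the 6 with the highest halofuginone mean. They also included those with a control mean under 5 and the 3 nearest each limit on either side. Those adjacent to another of the group or overlapping a gene completed the choice. Not all of them are described: LOC409722, LOC100577939, LOC102653996 and some genes just outside the limits on the means are not. The text also gives further genes of the group, chosen after their values were seen. Names and gene order came from the RefSeq gene table of Amel_HAv3.1, which matched 9225 of 10041 genes. Intervals on read ratios cover counting error only, and take no account of the choice of the genes by the rule. Pathway lists by annotation, promoter sequence and protein sequence were not analysed here.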

Additional observations from a re-analysis of the deposited data

How the results depend on the processing

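The rule gave 63 genes with library-total scaling, 46 with TMM and 37 with a floor of 100, against 50, and 24 with a gap of at least 2 times and 28 with a ceiling of 100. Leaving out 1 library gave 65 to 110 genes, since fewer libraries are easier to separate (110 without Control 1, 94 without Halofuginone 2), of which 48 to 50 were the original ones. The median log2 difference of the genes so chosen was 1.45 to 1.81, against 1.83.

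Genes called numbered 385 with DESeq2, 169 with limma without a trend and 47 to 277 with 1 library left out (47 without Control 3, 63 without Control 2, 126 without Halofuginone 4), against 238; the other scalings, pseudocounts, the filter and edgeR gave 237 to 241. Of the 50 genes, 25 were called without a trend and 3 to 25 with 1 library left out, against 40. Neighbouring genes called higher numbered 1 without a trend, 9 with DESeq2 and 0 to 4 with 1 library left out (0 without Control 2 or Control 3, 3 without Halofuginone 3), against 5; these alternatives, and those for Halofuginone 3, were chosen after seeing the data. The count of 14 genes high in Halofuginone 3 was 15 under both other scalings.

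The replicate numbers in the sample titles are shared by both groups only for 2 and 3. Deviations of same-numbered libraries from their group means correlated at 0.07 and -0.03. For the libraries that share a deposited table the correlations were -0.18, -0.15 and -0.11. So few correlations cannot decide whether libraries were paired. With a replicate block by title number, 3 genes, 0 of the 50 and 0 neighbours were called. With a block by deposited table the counts were 7, 1 and 0. Such blocks leave little replication from which to estimate the spread, so these lower counts decide nothing about pairing. Of 507 alternative log2 differences of 32 genes chosen to be named, 13 moved by more than the SD of the treated libraries. Their sign was fixed by the rule. Limma without a trend, the filter and the block by deposited table cannot move a log2 difference, yet are among the 507. The SD is also a loose limit where treated libraries differ widely. LOC102656472 fell from 2.91 to 1.56 without Halofuginone 3, which was within its SD of 2.36. The count of 13 is therefore no measure of stability. Depth limits the genes with few reads, such as LOC552773 with 13 control reads.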

Other observations

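The rule turned around, with a halofuginone mean under 200, a control mean of at least 50 and the lowest control library at least 1.5 times the highest halofuginone library, gave 34 genes, against 50 in the direction described above. Among the 1862 genes that met the ceiling on the control mean and the floor on the halofuginone mean, 29 had a ratio of means of at least 5. Of these, 16 belonged to the 50 genes, and the other 13 missed the gap between the lowest treated and the highest control library.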
